A study of Rattus norvegicus with 9 samples.

Results

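The genes described here build the actin cytoskeleton of vascular smooth muscle cells and tie it to focal adhesions, the sites where integrins hold the matrix. They were chosen by symbol and by a mean level of at least 1 FPKM, a rule that holds no fold change, although the list was drawn up with earlier results of these data known. The 38 symbols cover actins, monomer-binding proteins, tropomyosins, non-muscle myosin, crosslinkers, adhesion plaque proteins and LIM-domain proteins. The table of 26407 rows held 40 rows under these symbols, and 37 of them (36 symbols) averaged 1 FPKM or more across the libraries, a level that 11376 genes in all reached. Fhl1, Lima1 and a second Actb row (ENSRNOG00000029188) were listed at 0 in every library and were not tested. Just inside the limit lay Ldb3, with 0.613, 1.41 and 0.814 FPKM in the PDGF-NS libraries, 0.765, 0.335 and 1.05 FPKM in the IGF-NS libraries and 2.09, 1.61 and 1.20 FPKM in the control libraries.

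RNA sequencing had been done on S31 cells, wild-type primary smooth muscle cells of small heart vessels, taken from male Wistar Kyoto rats whose age the labels do not give. All cells, the controls included, were starved of serum for 48 h in medium with 0.02% lactalbumin hydrolysate. They were then given 25 ng/ml of a growth factor in serum-free medium, or fresh serum-free medium alone. The columns named PDGF-NS belong to the records of recombinant human IGF-1 harvested at 24 h, and the columns named IGF-NS belong to the records of recombinant rat PDGF-BB harvested at 48 h. This conflict between record and column could not be resolved from the labels, and no expression value was used to settle it, so the sets are called by their columns. The control columns, named LH-NS, were harvested at 24 h, so that growth factor and time cannot be told apart in the set harvested at 48 h. Each set held 3 libraries. Whether the libraries of a set stem from independent cultures is not given in the labels, so the p-values speak only to the scatter of these samples, which may be technical.

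Actin monomers polymerise into filaments, which tropomyosin coats, alpha-actinin and filamin crosslink, and non-muscle myosin pulls on. Talin, vinculin, paxillin and zyxin connect the filament ends to integrins, and LIM-domain proteins sit on filaments under tension. Many of these genes are known targets of serum response factor, and some are targets of the TEAD factors with YAP and TAZ. Some coactivators of serum response factor, of the myocardin family, bind free actin monomers. In vascular smooth muscle the same proteins carry force in the contractile state and adhesion and movement in the proliferating state. PDGF-BB is a classical mitogen and motility factor for these cells, and IGF-1 signals mainly through PI3K and AKT.

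The values are FPKM, fragments per kilobase of transcript length scaled to library size, which can be compared between genes. Read depth is unknown, and from the spacing of low values the libraries' relative depths lay between 0.611 and 1.33, with control library 1 set to 1.0. Across genes, Pearson's r between libraries was 0.959 to 0.983 within a set and 0.901 to 0.947 between sets, and genes are not independent replicates. Fold changes were taken with limma on log2(FPKM + 1), and a gene was called when its Benjamini-Hochberg adjusted p over all 11376 genes was under 0.05. This scale understates the change of low genes, whereas a value ending in -fold is a ratio of mean FPKM, and a signed value given with an adjusted p is a log2 fold change on this scale. Values in bulk RNA cannot tell fewer cells of a type from less RNA per cell.

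Most of the actin and adhesion genes were lower in both treated sets than in control, and none was called higher in either. In PDGF-NS against control 27 of 37 rows fell (73.0%), 0 rose and 10 were not called. Over all genes tested in that comparison 10.2% fell and 20.7% rose. The median log2 fold change of the 37 rows was −0.93, beside 0.13 over all genes. A fall of at least 1 on the log2 scale was called in 18 rows (48.6%), beside 4.03% of all genes.

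In IGF-NS against control 28 of 37 rows fell (75.7%), 0 rose and 9 were not called. Over all genes 7.48% fell and 17.4% rose. The median log2 fold change of the rows was −1.10, beside 0.15 over all genes, and 22 rows (59.5%) fell by at least 1, beside 3.1% of all genes. Both comparisons use the same 3 control libraries. Under alternative scalings of the libraries the split over all genes moved: with median ratio scaling 15.4% rose and 14.8% fell in PDGF-NS against control, and 10.1% rose and 10.7% fell in IGF-NS against control. That scaling moved the median of all genes to 0.01 in both comparisons, and the members then numbered 28 lower in PDGF-NS and 31 lower in IGF-NS, with 0 higher in either.

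**Figure D1:**
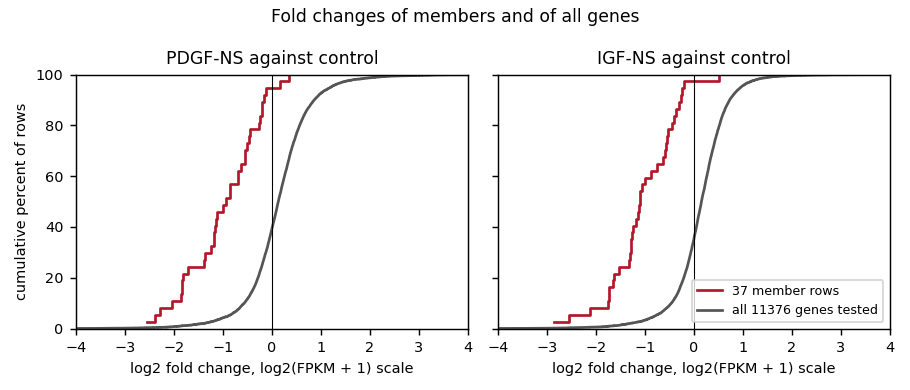
Cumulative percent of rows (y axis) by log2 fold change on the log2(FPKM + 1) scale (x axis), for the 37 actin and adhesion rows and for all 11376 genes tested, in PDGF-NS against control (left) and IGF-NS against control (right). The members' curves lie left of the curve of all genes in both comparisons with control, with medians of −0.93 (PDGF-NS) and −1.10 (IGF-NS).

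**Figure D2:**
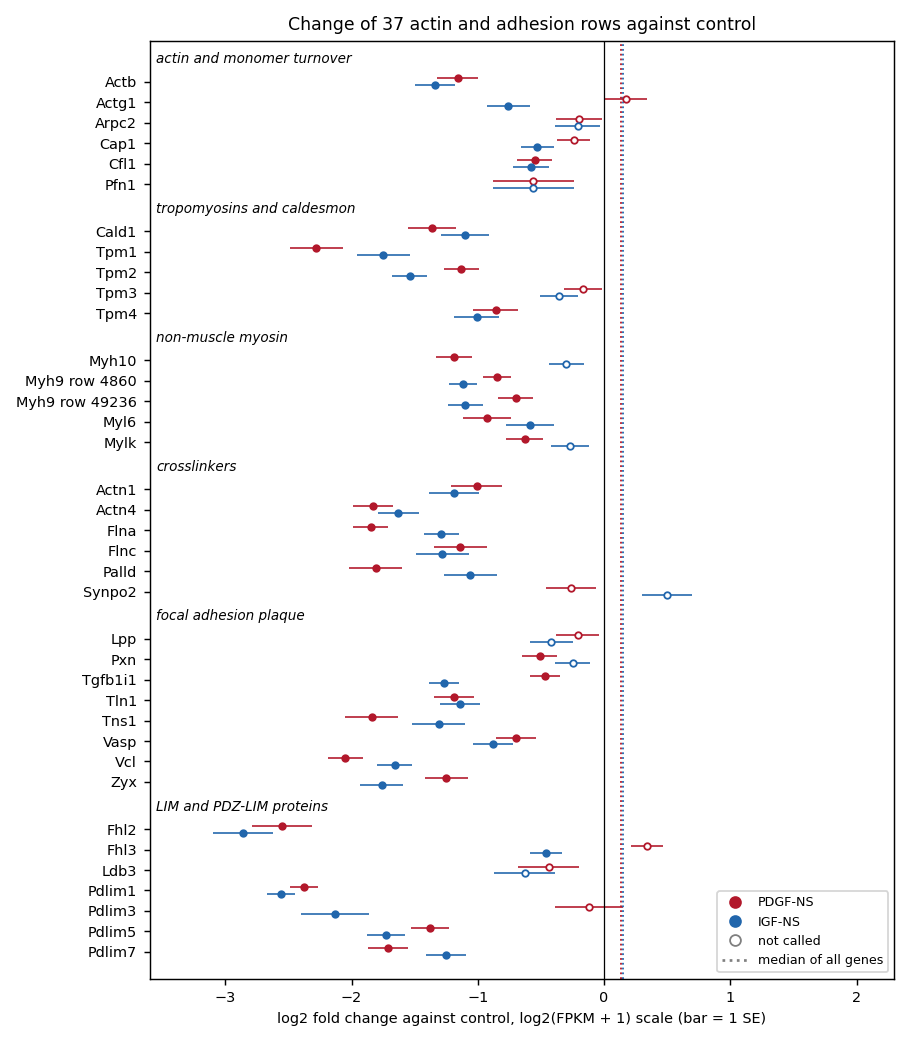
Log2 fold change against control (x axis) of each of the 37 rows (y axis), grouped by role, with PDGF-NS above IGF-NS in each row. Bars are 1 SE, filled points were called, and dotted lines mark the median of all genes. No filled point lies to the right of 0, and Fhl2 and Pdlim1 lie farthest to the left.

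Promoter sequences are shown because serum response factor and TEAD factors are the known regulators of many of these genes. RefSeq windows of GRCr8, from 250 bases before to 50 after the annotated start, were matched by symbol for 32 of the 38 members and gave 44 windows. No window was matched for Actb, Actn4, Cap1, Lpp, Pdlim3 or Tns1. The CArG box, the core that serum response factor binds, was searched on both strands and lay in 6 of 44 windows (13.6%), against 1.64% of all 33469 windows. Among members that passed the filter it lay in 4 of 41 windows (9.76%), those of Actg1, Fhl2 and Ldb3. The other windows with the box were those of Fhl1 and Lima1, which were not tested. Against control Fhl2 was called lower in both treated sets, Actg1 in IGF-NS only and Ldb3 in neither. Capitals mark the box in these stretches, each written 5′ to 3′ on the strand of the gene.
Fhl2, 58 bases before the start, chr9:52923355-52923404, minus strand: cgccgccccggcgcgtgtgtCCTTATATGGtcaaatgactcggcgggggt
Fhl2, 95 bases before the start, chr9:52954606-52954655, minus strand: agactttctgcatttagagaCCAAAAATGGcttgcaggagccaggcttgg
Actg1, 90 bases before the start, chr10:106121012-106121061, minus strand: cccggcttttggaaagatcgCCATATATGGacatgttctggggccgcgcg
Ldb3, 52 bases before the start, chr16:9924702-9924751, minus strand: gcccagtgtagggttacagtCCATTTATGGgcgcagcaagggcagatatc

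The TEAD core GGAATG, or CATTCC where it is read on the other strand, lay in 12 of 44 windows of members (27.3%), against 14.2% of all windows. It overlapped no CArG box in the stretches printed. The 12 genes were Arpc2, Cald1, Fhl2, Flna, Flnc, Myh10, Mylk, Palld, Pfn1, Tpm1, Vcl and Zyx. Against control Arpc2 and Pfn1 were called in neither treated set, Myh10 and Mylk were lower in PDGF-NS only, and the others were lower in both. Of all 37 member rows 27 fell in PDGF-NS and 28 fell in IGF-NS. Stretches of 4 genes whose fall is described later are printed, with the core in capitals. A match is a run of letters in a window and does not show that a factor binds there.
Tpm1, 31 bases before the start, chr8:76543421-76543466, minus strand: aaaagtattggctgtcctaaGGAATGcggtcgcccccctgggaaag
Vcl, 167 bases before the start, chr15:3404942-3404987, minus strand: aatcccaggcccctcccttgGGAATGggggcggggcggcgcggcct
Zyx, 205 bases before the start, chr4:72203775-72203820, plus strand: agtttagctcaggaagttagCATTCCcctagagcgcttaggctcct
Flna, 74 bases before the start, chrX:157182392-157182437, minus strand: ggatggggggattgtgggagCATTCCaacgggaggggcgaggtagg

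Among the actins and the proteins that handle actin monomers, 2 of 6 rows fell in PDGF-NS against control and 4 of 6 fell in IGF-NS against control. This count and those of the groups below are read beside all genes tested, of which 10.2% fell in PDGF-NS and 7.48% in IGF-NS. Actb encodes cytoplasmic beta-actin (ENSRNOG00000034254) and had the highest level of any member. It had 3456, 3821 and 3775 FPKM in the PDGF-NS libraries, 3075, 2872 and 3837 FPKM in the IGF-NS libraries and 8164, 7240.0 and 9392 FPKM in the control libraries. Every treated library lay below every control library, by 2.24-fold in PDGF-NS and 2.53-fold in IGF-NS. The log2 fold change was −1.16 ± 0.16 (SE, adjusted p = 0.000555) in PDGF-NS and −1.34 ± 0.16 (SE, adjusted p = 0.000444) in IGF-NS.

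Actg1, cytoplasmic gamma-actin (ENSRNOG00000036701), behaved otherwise. It had 47.8, 56.9 and 63.5 FPKM in the PDGF-NS libraries, 24.8, 27.0 and 35.9 FPKM in the IGF-NS libraries and 54.5, 43.7 and 50.9 FPKM in the control libraries. The PDGF-NS libraries overlapped the controls, with a log2 fold change of 0.17 ± 0.17 (SE, adjusted p = 0.478), whereas all IGF-NS libraries lay below them, with −0.76 ± 0.17 (SE, adjusted p = 0.00969). Both cytoplasmic actins have nearly identical coding sequences, so the split of reads between Actb and Actg1 in the authors' estimates is uncertain.

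Cfl1, cofilin, severs actin filaments. It averaged 1496 ± 161 FPKM in PDGF-NS, 1469 ± 151 FPKM in IGF-NS and 2186 ± 119 FPKM in control (SD, n = 3 each) and fell in both sets, with log2 fold changes of −0.55 (adjusted p = 0.0128) in PDGF-NS and −0.58 (adjusted p = 0.0135) in IGF-NS. The call in IGF-NS ended without IGF-NS library 1 (adjusted p = 0.0562). Cap1, which recycles actin monomers with cofilin, averaged 239 ± 7.19 FPKM in PDGF-NS, 195 ± 13.4 FPKM in IGF-NS and 283 ± 40.5 FPKM in control. It fell in IGF-NS, −0.53 (adjusted p = 0.014), a call that also ended without IGF-NS library 1 (adjusted p = 0.0556), and it had −0.24 (adjusted p = 0.182) in PDGF-NS, which was called only with median ratio scaling (−0.37, adjusted p = 0.0495) or a common sum (−0.38, adjusted p = 0.0378).

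Pfn1, profilin, delivers monomers to growing filaments, and Arpc2 is a subunit of the Arp2/3 complex that starts branches. Neither was called against control. Pfn1 had 559, 874 and 761 FPKM in the PDGF-NS libraries, 657, 485 and 1169 FPKM in the IGF-NS libraries and 1472, 884 and 925 FPKM in the control libraries. The PDGF-NS libraries lay below all controls, and IGF-NS library 3 lay within their range. Its log2 fold change was −0.56 ± 0.32 (SE, adjusted p = 0.206) in PDGF-NS and −0.56 ± 0.32 (SE, adjusted p = 0.226) in IGF-NS, and the IGF-NS value was called only when IGF-NS library 3 was left out (−0.91, adjusted p = 0.0367). Arpc2 averaged 475 ± 19.3 FPKM in PDGF-NS, 477 ± 89.6 FPKM in IGF-NS and 554 ± 115 FPKM in control, with overlapping libraries in all sets.

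Tropomyosins coat actin filaments and set which myosins and severing proteins reach them. Of the 4 tropomyosin genes and Cald1, 4 of 5 fell in PDGF-NS and 4 of 5 fell in IGF-NS, in each case all but Tpm3. Tpm1, which gives the striated and smooth muscle forms as well as cytoplasmic ones (ENSRNOG00000018184), had 235, 172 and 205 FPKM in the PDGF-NS libraries, 253, 341 and 294 FPKM in the IGF-NS libraries and 768, 954 and 1319.5 FPKM in the control libraries. No treated library overlapped a control library. The log2 fold change was −2.28 ± 0.21 (SE, adjusted p = 4.11e-05) in PDGF-NS, 4.97-fold lower, and −1.75 ± 0.21 (SE, adjusted p = 0.000422) in IGF-NS, 3.42-fold lower.

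Tpm2, beta-tropomyosin of smooth and skeletal muscle (ENSRNOG00000016731), had the highest level of the tropomyosins. Its libraries stood at 717, 664 and 815 FPKM in the PDGF-NS libraries, 527, 591 and 533 FPKM in the IGF-NS libraries and 1431, 1598 and 1783 FPKM in the control libraries. The libraries of the 3 sets did not overlap, and IGF-NS was lowest. It fell by 2.19-fold in PDGF-NS, −1.13 (adjusted p = 0.000211), and by 2.91-fold in IGF-NS, −1.54 (adjusted p = 7.09e-05).

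Tpm4, a cytoplasmic tropomyosin of stress fibres (ENSRNOG00000015496), had 80.6, 104 and 108 FPKM in PDGF-NS, 72.0, 88.9 and 102 FPKM in IGF-NS and 147, 178 and 205 FPKM in control. It was 1.82-fold lower in PDGF-NS, −0.86 ± 0.18 (SE, adjusted p = 0.00525), and 2.02-fold lower in IGF-NS, −1.01 ± 0.18 (SE, adjusted p = 0.00347). Tpm3, the other mainly cytoplasmic gene, averaged 104 ± 15.2 FPKM in PDGF-NS, 91.1 ± 9.85 FPKM in IGF-NS and 117 ± 13.2 FPKM in control. Its log2 fold changes of −0.17 (adjusted p = 0.422) in PDGF-NS and −0.36 (adjusted p = 0.108) in IGF-NS were not called, although the IGF-NS libraries did not overlap the controls, and with median ratio scaling the IGF-NS value was called at −0.51 (adjusted p = 0.0315). Cald1, caldesmon, which holds tropomyosin-coated filaments in check, had 105, 135 and 132 FPKM in the PDGF-NS libraries, 142, 174 and 131 FPKM in the IGF-NS libraries and 256, 301 and 415 FPKM in the control libraries. All treated libraries lay below the controls, with −1.36 ± 0.19 (SE, adjusted p = 0.000607) in PDGF-NS and −1.10 ± 0.19 (SE, adjusted p = 0.00338) in IGF-NS.

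**Figure D3:**
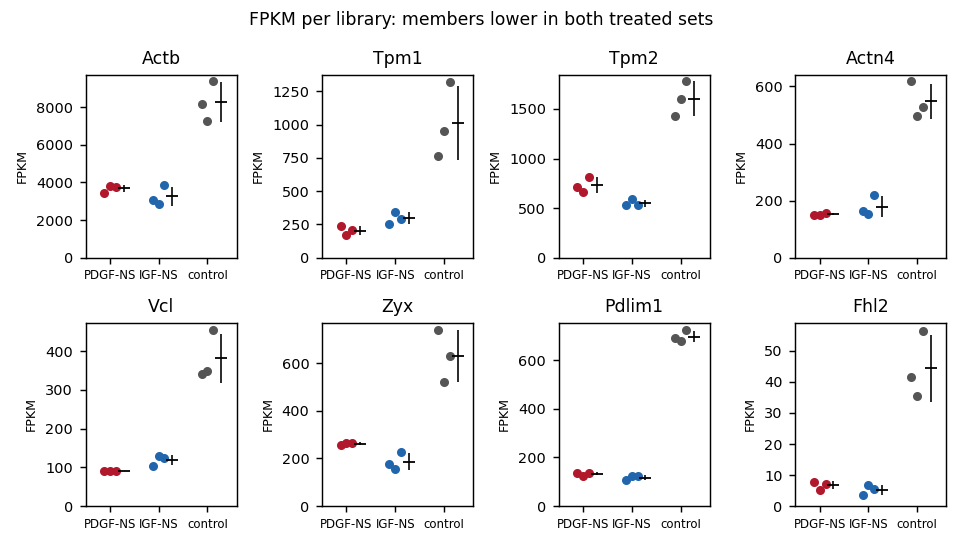
FPKM (y axis, from 0) in every library of the PDGF-NS, IGF-NS and control sets (x axis) for 8 members that fell in both treated sets. Points are libraries, and beside them a tick marks the mean and a bar 1 SD to either side (n = 3). For each gene shown, every treated library lies below every control library.

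Non-muscle myosin II moves filaments past each other. The 5 rows grouped here are those of Myh9, counted in 2 rows, Myh10, Myl6 and the kinase Mylk. All 5 rows fell in PDGF-NS, and 3 of 5, both Myh9 rows among them, fell in IGF-NS. Myh9, the heavy chain IIA, has 2 rows in the table. The higher row (ENSRNOG00000049236) had 21.5, 21.8 and 27.5 FPKM in the PDGF-NS libraries, 18.1, 16.6 and 18.1 FPKM in the IGF-NS libraries and 44.5, 36.3 and 36.0 FPKM in the control libraries, and it fell by 1.65-fold in PDGF-NS, −0.70 (adjusted p = 0.00389), and by 2.21-fold in IGF-NS, −1.10 (adjusted p = 0.000573). The lower row (ENSRNOG00000004860) had 9.15, 10.1 and 9.65 FPKM in PDGF-NS, 7.95, 7.91 and 7.61 FPKM in IGF-NS and 18.6, 18.9 and 17.2 FPKM in control and fell as well, with −0.85 (adjusted p = 0.000368) in PDGF-NS and −1.12 (adjusted p = 0.000142) in IGF-NS. The libraries of the 3 sets did not overlap in either row, and reads of this gene may have been divided between its rows.

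Myh10, the heavy chain IIB (ENSRNOG00000002886), had 40.2, 47.7 and 45.0 FPKM in the PDGF-NS libraries, 84.7, 93.1 and 71.2 FPKM in the IGF-NS libraries and 104, 113 and 90.3 FPKM in the control libraries. It fell in PDGF-NS by 2.31-fold, with −1.19 ± 0.14 (SE, adjusted p = 0.00019). In IGF-NS its libraries overlapped the controls, and −0.30 ± 0.14 (SE, adjusted p = 0.144) was not called except with median ratio scaling (−0.46, adjusted p = 0.0407). Myl6, the essential light chain of these myosins, had 416, 388 and 477 FPKM in PDGF-NS, 575, 572 and 480.5 FPKM in IGF-NS and 602, 920.1 and 966 FPKM in control. It fell in PDGF-NS, −0.93 ± 0.19 (SE, adjusted p = 0.00429). In IGF-NS it was called at −0.59 (adjusted p = 0.0446), but the call ended when any library other than control library 1 was left out (adjusted p = 0.0604 to 0.14). Mylk, the kinase that activates myosin, averaged 6.57 ± 1.06 FPKM in PDGF-NS, 8.67 ± 0.493 FPKM in IGF-NS and 10.7 ± 1.33 FPKM in control. It fell in PDGF-NS, −0.63 (adjusted p = 0.00959), and had −0.27 (adjusted p = 0.212) in IGF-NS, which was not called.

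Crosslinkers bundle filaments into stress fibres or nets. Of 6, 5 fell in PDGF-NS and 5 fell in IGF-NS, each of them by at least 1 on the log2 scale, and Synpo2 was not called in either. Actn1, an alpha-actinin of stress fibres and adhesions (ENSRNOG00000004309), had 112, 164 and 132 FPKM in the PDGF-NS libraries, 116, 105 and 137 FPKM in the IGF-NS libraries and 247, 225 and 362 FPKM in the control libraries. Its log2 fold change was −1.01 ± 0.20 (SE, adjusted p = 0.00427) in PDGF-NS and −1.19 ± 0.20 (SE, adjusted p = 0.00288) in IGF-NS. Actn4, the second non-muscle alpha-actinin (ENSRNOG00000020433), had 151, 150.1 and 157 FPKM in the PDGF-NS libraries, 162, 152 and 221 FPKM in the IGF-NS libraries and 618, 498 and 527 FPKM in the control libraries. The fall of Actn4 was 3.58-fold in PDGF-NS, −1.83 ± 0.16 (SE, adjusted p = 2.73e-05), and 3.07-fold in IGF-NS, −1.63 ± 0.16 (SE, adjusted p = 0.000107). For both genes all treated libraries lay below all control libraries.

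Flna, filamin A, joins filaments at wide angles and links them to integrins (ENSRNOG00000037239). It had 138, 166 and 142 FPKM in the PDGF-NS libraries, 209, 205 and 241 FPKM in the IGF-NS libraries and 612, 492 and 509 FPKM in the control libraries. The 3 sets did not overlap: PDGF-NS was lowest and control highest. The log2 fold change was −1.85 ± 0.14 (SE, adjusted p = 1.29e-05) in PDGF-NS and −1.29 ± 0.14 (SE, adjusted p = 0.000187) in IGF-NS. Flnc, the muscle filamin (ENSRNOG00000007281), had 29.7, 39.8 and 38.8 FPKM in PDGF-NS, 36.3, 24.7 and 37.5 FPKM in IGF-NS and 96.9, 62.3 and 85.0 FPKM in control. It fell by 2.25-fold in PDGF-NS, −1.14 ± 0.21 (SE, adjusted p = 0.00271), and by 2.48-fold in IGF-NS, −1.28 ± 0.21 (SE, adjusted p = 0.00228). Palld, palladin, a scaffold that binds alpha-actinin (ENSRNOG00000010107), had 28.1, 32.3 and 27.3 FPKM in the PDGF-NS libraries, 45.0, 45.1 and 60.6 FPKM in the IGF-NS libraries and 141, 78.4 and 105 FPKM in the control libraries. Again the 3 sets did not overlap and PDGF-NS was lowest, with −1.81 ± 0.21 (SE, adjusted p = 0.000155) in PDGF-NS and −1.06 ± 0.21 (SE, adjusted p = 0.00533) in IGF-NS.

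In the adhesion plaque 7 of 8 genes fell in PDGF-NS and 6 of 8 fell in IGF-NS. Vcl, vinculin, which strengthens the bond between talin and actin (ENSRNOG00000010765), had 90.5, 90.0 and 90.8 FPKM in the PDGF-NS libraries, 103, 129 and 125 FPKM in the IGF-NS libraries and 341, 348 and 455 FPKM in the control libraries. The PDGF-NS libraries lay within 1 FPKM of each other and below every IGF-NS library, and both sets lay below control. Vcl was 4.22-fold lower in PDGF-NS, −2.05 ± 0.14 (SE, adjusted p = 1.05e-05), and 3.20-fold lower in IGF-NS, −1.66 ± 0.14 (SE, adjusted p = 6.45e-05).

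Tln1, talin, which binds and activates integrins (ENSRNOG00000016630), had 37.8, 44.8 and 41.7 FPKM in the PDGF-NS libraries, 41.4, 36.5 and 51.7 FPKM in the IGF-NS libraries and 111, 86.5 and 90.5 FPKM in the control libraries. It fell by 2.32-fold in PDGF-NS, −1.19 ± 0.16 (SE, adjusted p = 0.000361), and by 2.22-fold in IGF-NS, −1.14 ± 0.16 (SE, adjusted p = 0.000863), with no overlap with control. Zyx, zyxin, which gathers at stretched filaments and recruits Vasp (ENSRNOG00000017354), had 255, 263 and 267 FPKM in the PDGF-NS libraries, 175, 157 and 228 FPKM in the IGF-NS libraries and 739.6, 522 and 629 FPKM in the control libraries. No libraries of different sets overlapped, and IGF-NS was lowest, with −1.25 ± 0.17 (SE, adjusted p = 0.000431) in PDGF-NS and −1.76 ± 0.17 (SE, adjusted p = 0.00011) in IGF-NS. Vasp, which lengthens filaments at their growing ends, averaged 122 ± 21.4 FPKM in PDGF-NS, 107 ± 17.2 FPKM in IGF-NS and 198 ± 16.1 FPKM in control, with log2 fold changes of −0.70 (adjusted p = 0.00799) in PDGF-NS and −0.88 (adjusted p = 0.00381) in IGF-NS.

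Tns1, tensin 1, a marker of mature fibrillar adhesions (ENSRNOG00000014182), had 55.7, 49.4 and 50.6 FPKM in the PDGF-NS libraries, 67.1, 60.3 and 104 FPKM in the IGF-NS libraries and 239, 169 and 164 FPKM in the control libraries. It fell by 3.67-fold in PDGF-NS, −1.84 ± 0.21 (SE, adjusted p = 0.000167), and by 2.47-fold in IGF-NS, −1.31 ± 0.21 (SE, adjusted p = 0.00213). Tgfb1i1 encodes Hic-5, the paxillin relative of smooth muscle (ENSRNOG00000019965), and had 539, 556 and 572 FPKM in the PDGF-NS libraries, 304, 296 and 358 FPKM in the IGF-NS libraries and 776, 709 and 824 FPKM in the control libraries. Its fall was 1.38-fold in PDGF-NS, −0.47 ± 0.12 (SE, adjusted p = 0.0166), and 2.41-fold in IGF-NS, −1.27 ± 0.12 (SE, adjusted p = 0.000117). The call in PDGF-NS ended without control library 3 (adjusted p = 0.059).

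Pxn, paxillin, a docking protein for kinases at adhesions, averaged 90.1 ± 8.56 FPKM in PDGF-NS, 108 ± 16.1 FPKM in IGF-NS and 128 ± 9.97 FPKM in control. It was called in PDGF-NS at −0.51 (adjusted p = 0.0189), but not without control library 2, PDGF-NS library 2 or PDGF-NS library 3 (adjusted p = 0.05 to 0.0777), and had −0.25 (adjusted p = 0.209) in IGF-NS, which was not called. Lpp, a zyxin relative enriched in smooth muscle, averaged 116 ± 20.4 FPKM in PDGF-NS, 99.4 ± 14.8 FPKM in IGF-NS and 134 ± 19.9 FPKM in control and was not called in either set, with −0.21 (adjusted p = 0.381) in PDGF-NS and −0.42 (adjusted p = 0.0983) in IGF-NS. With median ratio scaling or quantile normalization the value in IGF-NS was called (−0.58, adjusted p = 0.0293, and −0.48, adjusted p = 0.045).

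The LIM-domain proteins held the members with the largest fold changes in either set. Of 7 tested, 4 fell in PDGF-NS and 6 fell in IGF-NS. Fhl2, a four-and-a-half-LIM protein that moves between adhesions and the nucleus and is a known target of serum response factor (ENSRNOG00000016866), had 7.79, 5.20 and 7.16 FPKM in the PDGF-NS libraries, 3.55, 6.75 and 5.61 FPKM in the IGF-NS libraries and 41.6, 35.3 and 56.4 FPKM in the control libraries. It was 6.62-fold lower in PDGF-NS, −2.55 ± 0.24 (SE, adjusted p = 4.61e-05), and 8.39-fold lower in IGF-NS, −2.86 ± 0.24 (SE, adjusted p = 5.4e-05). The stretches of Fhl2 printed above, from different windows, each hold a CArG box.

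Pdlim1, which binds alpha-actinin through its PDZ domain (ENSRNOG00000016166), had 136, 125 and 137 FPKM in the PDGF-NS libraries, 105, 122 and 124 FPKM in the IGF-NS libraries and 689, 677 and 722 FPKM in the control libraries. The libraries within each set lay close together, and the gap to control was 5.24-fold in PDGF-NS and 5.94-fold in IGF-NS. Its log2 fold change was −2.38 ± 0.11 (SE, adjusted p = 1.68e-06) in PDGF-NS and −2.56 ± 0.11 (SE, adjusted p = 3.05e-06) in IGF-NS. Pdlim5, which binds alpha-actinin and protein kinase C (ENSRNOG00000016419), had 101, 94.9 and 88.7 FPKM in the PDGF-NS libraries, 61.9, 75.1 and 86.9 FPKM in the IGF-NS libraries and 220.5, 239.6 and 290.4 FPKM in the control libraries. All treated libraries lay below control, with log2 fold changes of −1.38 ± 0.15 (SE, adjusted p = 0.000139) in PDGF-NS and −1.73 ± 0.15 (SE, adjusted p = 7.2e-05) in IGF-NS. Pdlim7, which binds tropomyosin and alpha-actinin (ENSRNOG00000013653), had 53.9, 69.9 and 70.6 FPKM in the PDGF-NS libraries, 83.0, 77.7 and 108 FPKM in the IGF-NS libraries and 223, 188 and 229 FPKM in the control libraries. It fell in both sets, with −1.71 ± 0.16 (SE, adjusted p = 5.73e-05) in PDGF-NS and −1.25 ± 0.16 (SE, adjusted p = 0.000697) in IGF-NS. Between the treated sets its difference of −0.46 (adjusted p = 0.09) was not called, but it was with a common sum (−0.59, adjusted p = 0.0206) or quantile normalization (−0.52, adjusted p = 0.0328).

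Ldb3, the striated muscle protein ZASP, whose values are given above, was not called in PDGF-NS, −0.44 (adjusted p = 0.192), or in IGF-NS, −0.63 (adjusted p = 0.0874). With quantile normalization the value in IGF-NS was called at −0.74 (adjusted p = 0.0476). The remaining LIM proteins, Pdlim3 and Fhl3, differed between the treated sets and are described with that comparison.

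Summed over all members, the share of a library's FPKM was less than in control in every treated library. The summed level was 9953, 10904 and 11183 FPKM in PDGF-NS, 9435, 9326 and 11349 FPKM in IGF-NS and 21654, 20230.0 and 24217 FPKM in control. That was 1.50 ± 0.051% of the library in PDGF-NS, 1.54 ± 0.128% in IGF-NS and 3.42 ± 0.328% in control (SD, n = 3 each). The sum was 2.06-fold lower in PDGF-NS and 2.20-fold lower in IGF-NS than in control, each with p = 0.1 in a two-sided exact permutation test, the smallest p that 3 libraries against 3 can give. Actb made up between 30.8% and 38.8% of the sum in the 9 libraries. Without Actb the sum was 1.97-fold lower in PDGF-NS and 2.03-fold lower in IGF-NS.

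The comparison of the treated sets asked whether the growth factor responses diverge, which is the question in the series' title, and by record these sets differ in harvest time as well. Between PDGF-NS and IGF-NS 4 of 37 rows were higher in PDGF-NS (10.8%), 4 were lower (10.8%) and 29 were not called. Over all genes tested 8.33% were higher and 7.55% lower, so that the share of members called lies near the background. Pdlim3 alone was called higher by at least 1 on the log2 scale (3.75% of all genes), and 0 members were called lower by as much (2.64% of all genes). The median log2 fold change was 0.15 for members and −0.02 for all genes. Rescaling the libraries to a common sum moved the split to 4 higher and 8 lower among members, and to 6.48% higher and 13% lower over all genes. The members it added were Pdlim7, Tns1 (−0.66, adjusted p = 0.0475), Vcl (−0.52, adjusted p = 0.0334) and Mylk (−0.48, adjusted p = 0.048).

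Pdlim3, an alpha-actinin partner of muscle Z-lines and dense bodies (ENSRNOG00000012658), had 8.05, 13.9 and 16.0 FPKM in the PDGF-NS libraries, 1.79, 2.17 and 2.92 FPKM in the IGF-NS libraries and 9.34, 15.4 and 16.2 FPKM in the control libraries. The PDGF-NS libraries overlapped the controls, and every IGF-NS library lay below both sets. PDGF-NS was 5.51-fold the IGF-NS level, with 2.01 ± 0.27 (SE, adjusted p = 0.000785). Against control the log2 fold change was −0.12 ± 0.27 (SE, adjusted p = 0.772) in PDGF-NS and −2.13 ± 0.27 (SE, adjusted p = 0.00058) in IGF-NS.

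Fhl3, a LIM protein of muscle that binds alpha-actinin and transcription factors (ENSRNOG00000007541), had 76.9, 77.2 and 79.2 FPKM in the PDGF-NS libraries, 43.2, 41.4 and 49.3 FPKM in the IGF-NS libraries and 71.6, 59.1 and 54.7 FPKM in the control libraries. All PDGF-NS libraries lay above control and all IGF-NS libraries below it. The difference between the treated sets was 0.79 ± 0.13 (SE, adjusted p = 0.00244). Against control it had 0.34 (adjusted p = 0.0738) in PDGF-NS, which was called only without control library 1 (0.44, adjusted p = 0.023). The IGF-NS value of −0.46 (adjusted p = 0.0285) was called but did not keep its call without control library 1 or 2 or IGF-NS library 1 or 2 (adjusted p = 0.057 to 0.0933).

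Actg1, whose libraries are given above, was 1.92-fold higher in PDGF-NS than in IGF-NS, with 0.92 ± 0.17 (SE, adjusted p = 0.00429). For Tgfb1i1 the ratio was 1.74-fold, with 0.80 ± 0.12 (SE, adjusted p = 0.00175). In both genes the lowest PDGF-NS library lay above the highest IGF-NS library.

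Lower in PDGF-NS than in IGF-NS were Myh10, Flna, Palld and Synpo2. Myh10 had the firmest call of them, −0.89 ± 0.14 (SE, adjusted p = 0.00209), and its treated sets did not overlap. Synpo2, synaptopodin 2 or myopodin, a crosslinker of smooth muscle (ENSRNOG00000014867), had 2.38, 2.86 and 3.52 FPKM in the PDGF-NS libraries, 5.38, 7.63 and 4.21 FPKM in the IGF-NS libraries and 3.91, 3.56 and 3.54 FPKM in the control libraries. All PDGF-NS libraries lay below control and all IGF-NS libraries above it, at levels near the lower end of the members, and the difference was −0.76 ± 0.20 (SE, adjusted p = 0.0279). Against control Synpo2 had −0.26 (adjusted p = 0.348) in PDGF-NS and 0.50 (adjusted p = 0.0959) in IGF-NS, and the IGF-NS value was called only without IGF-NS library 3 (0.67, adjusted p = 0.0343). Flna had −0.55 ± 0.14 (SE, adjusted p = 0.0205) and Palld −0.75 ± 0.21 (SE, adjusted p = 0.034).

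The calls of Flna, Palld and Synpo2 ended when single libraries were left out. Flna lost its call without IGF-NS library 1 or 3 or PDGF-NS library 1 or 3 (adjusted p = 0.0528 to 0.086), Palld without any 1 of the 6 treated libraries (adjusted p = 0.0552 to 0.119), and Synpo2 without IGF-NS library 1 or 2 or PDGF-NS library 1 or 2 (adjusted p = 0.0693 to 0.0968). The count of members lower in PDGF-NS was therefore 1 or 2 when any treated library was left out. Zyx (0.50 (adjusted p = 0.0722)) and Tpm2 (0.41 (adjusted p = 0.0703)) were not called between the treated sets with all libraries, and both were called without control library 1 (adjusted p = 0.0465 for Zyx and 0.0489 for Tpm2). Zyx was also called without IGF-NS library 3 (0.66, adjusted p = 0.025), and the count of members higher in PDGF-NS ran from 4 to 6 when single libraries were left out.

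**Figure D4:**
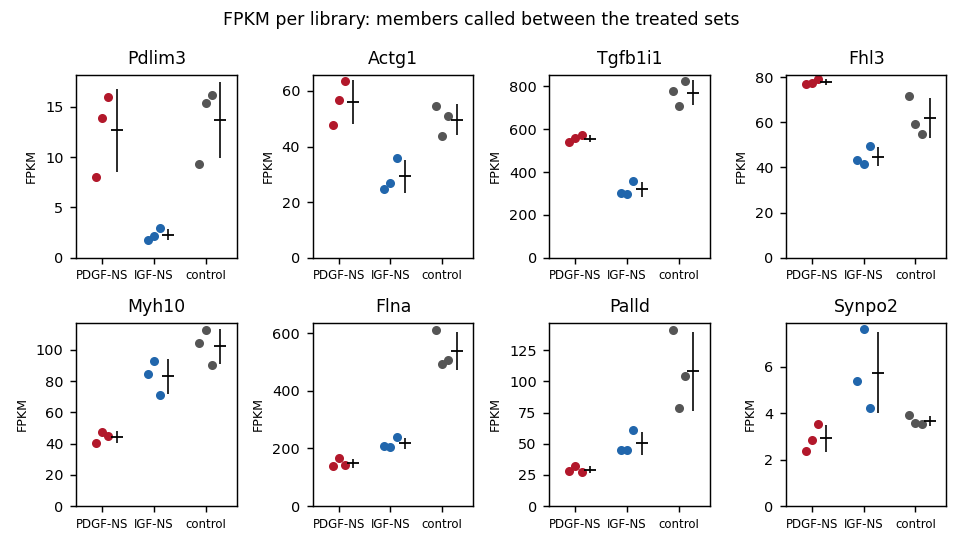
FPKM (y axis, from 0) in each library of the PDGF-NS, IGF-NS and control sets (x axis) for the 8 members called between the treated sets. Points are libraries, ticks are means and bars reach 1 SD to either side (n = 3). Pdlim3, Fhl3, Actg1 and Tgfb1i1 are higher in PDGF-NS than in IGF-NS, and Myh10, Flna, Palld and Synpo2 are lower.

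Ratios of related genes within a library do not change when all its values are scaled by a common factor, as with median ratio scaling or a common sum. Quantile normalization can change them, and the ratios were taken on the FPKM as deposited. Of 7 pairs compared over 3 contrasts (21 tests), none could pass 0.05, since an exact permutation test of 3 against 3 gives no p under 0.1. All ratios without overlap had p = 0.1 in that exact test (adjusted p = 0.131). The ratio of Myh9 (higher row) to Myh10 was 0.457 to 0.610 in PDGF-NS, 0.178 to 0.254 in IGF-NS and 0.322 to 0.426 in control. PDGF-NS thus lay above control and IGF-NS below it in every library, with a log2 difference of 1.32 between the treated sets. Taken with the lower row of Myh9 the same difference was 1.20.

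The ratio of Tpm2 to Tpm3, a muscle to a cytoplasmic tropomyosin, was 5.62 to 8.15 in PDGF-NS and 5.44 to 6.60 in IGF-NS, against 13.4 to 14.3 in control. For Tpm1 to Tpm4 it was 1.66 to 2.92 in PDGF-NS, 2.88 to 3.84 in IGF-NS and 5.21 to 6.42 in control. In both pairs the treated sets lay below control without overlap and overlapped each other. The ratio of Actb to Actg1 was 59.5 to 72.3 in PDGF-NS, 106 to 124 in IGF-NS and 149.9 to 185 in control, with no overlap, subject to the uncertain split of reads named above.

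Among crosslinkers the ratio of Actn1 to Actn4 was 0.742 to 1.09 in PDGF-NS, 0.620 to 0.716 in IGF-NS and 0.401 to 0.686 in control, so that IGF-NS overlapped control and PDGF-NS overlapped neither. The ratio of Flna to Flnc was 3.67 to 4.64 in PDGF-NS, below the 5.76 to 8.32 of IGF-NS and the 5.99 to 7.90 of control, and IGF-NS overlapped control. The ratio of Pdlim7 to Pdlim5 was 0.534 to 0.796 in PDGF-NS, 1.03 to 1.34 in IGF-NS and 0.783 to 1.01 in control, with PDGF-NS overlapping control.

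**Figure D5:**
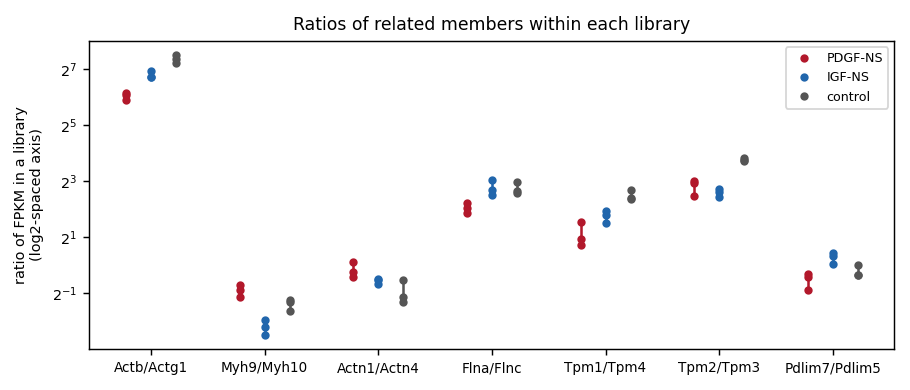
Ratio of FPKM of related genes within a library (y axis, log2 spacing) for 7 pairs (x axis), with PDGF-NS, IGF-NS and control from left to right in each pair. Points are libraries, and a line joins the lowest and the highest. Myh9 to Myh10 is highest in PDGF-NS and lowest in IGF-NS, and Tpm2 to Tpm3 is lower in both treated sets than in control.

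Other genes of the pathway were taken from lists chosen by function. Of 28 further focal adhesion genes tested, 2 rose, 10 fell and 16 were not called in PDGF-NS against control, and 1 rose, 7 fell and 20 were not called in IGF-NS against control. Over all genes 20.7% rose and 10.2% fell in PDGF-NS, and 17.4% rose and 7.48% fell in IGF-NS. The list's medians were −0.38 in PDGF-NS and −0.21 in IGF-NS. With median ratio scaling 15 of the 28 were called lower in PDGF-NS and 10 in IGF-NS, and the median in IGF-NS was −0.36. Lims2, PINCH-2 of the integrin-linked kinase complex, averaged 10.8 ± 2.11 FPKM in PDGF-NS and 127 ± 40.6 FPKM in control, a log2 fold change of −3.41 ± 0.24 (SE, adjusted p = 1.2e-05). In IGF-NS it averaged 11.7 ± 2.90 FPKM, a log2 fold change of −3.30 ± 0.24 (SE, adjusted p = 3.46e-05). Fblim1, migfilin, which binds filamin, averaged 46.3 ± 2.59 FPKM in PDGF-NS and 209 ± 14.8 FPKM in control, a log2 fold change of −2.15 ± 0.11 (SE, adjusted p = 2.82e-06). Parvb, beta-parvin of the same kinase complex, rose in PDGF-NS, with 27.2 ± 3.13 FPKM in PDGF-NS and 5.12 ± 0.944 FPKM in control and a log2 fold change of 2.21 ± 0.16 (SE, adjusted p = 1.2e-05).

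Of 14 other actin crosslinkers 0 rose, 9 fell and 5 were not called in PDGF-NS, with a median of −0.59. In IGF-NS 1 rose, 5 fell and 8 were not called, with a median of −0.16, or −0.32 with median ratio scaling. Over all genes 20.7% rose and 10.2% fell in PDGF-NS, and 17.4% rose and 7.48% fell in IGF-NS. Csrp1, a LIM protein on actin bundles, averaged 134 ± 5.46 FPKM in PDGF-NS and 541 ± 119 FPKM in control, with −1.98 ± 0.21 (SE, adjusted p = 9.93e-05). It averaged 84.1 ± 21.5 FPKM in IGF-NS, with −2.68 ± 0.21 (SE, adjusted p = 4.01e-05). Cnn2, calponin 2, fell in both sets, with −1.29 ± 0.25 (SE, adjusted p = 0.00366) in PDGF-NS and −1.39 ± 0.25 (SE, adjusted p = 0.00379) in IGF-NS. Between the treated sets Svil, supervillin, which ties myosin to membranes, was lower in PDGF-NS, with 13.2 ± 2.02 FPKM in PDGF-NS and 38.5 ± 3.80 FPKM in IGF-NS, a log2 fold change of −1.48 ± 0.14 (SE, adjusted p = 0.000119).

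Counts in the lists of genes that start and turn over filaments are read beside the shares of all genes, of which 20.7% rose and 10.2% fell in PDGF-NS, and 17.4% rose and 7.48% fell in IGF-NS. Of 18 genes of the Arp2/3 and WAVE complexes 5 rose, 0 fell and 13 were not called in PDGF-NS, and 3 rose, 0 fell and 15 were not called in IGF-NS. With median ratio scaling these counts were 4 higher and 0 lower in PDGF-NS, and 2 higher and 2 lower in IGF-NS. Arpc3, an Arp2/3 subunit, averaged 398 ± 26.4 FPKM in PDGF-NS and 223 ± 34.0 FPKM in control, a log2 fold change of 0.84 ± 0.13 (SE, adjusted p = 0.00121). Of 24 rows for turnover, capping and formins, Pfn2 and Tmsb10 with more than 1 row each, 3 rose, 3 fell and 18 were not called in PDGF-NS. In IGF-NS 1 rose, 3 fell and 20 were not called. With median ratio scaling 2 rose and 4 fell in PDGF-NS, and 0 rose and 4 fell in IGF-NS. The risen rows in PDGF-NS include TMSB10 (ENSRNOG00000036921), listed at 0 in part of the control libraries. It averaged 55.9 ± 26.6 FPKM in PDGF-NS and 17.2 ± 29.8 FPKM in control. A far higher row of the same gene, Tmsb10 (ENSRNOG00000042499), averaged 2408 ± 515 FPKM in PDGF-NS and 1822 ± 451 FPKM in control. That row was not called (0.41, limma adjusted p = 0.196). 1 of the rows named Tmsb4x was listed at 0 throughout, and the row tested was not called in either comparison. Wdr1, which helps cofilin take filaments apart, fell in both sets, with −1.04 ± 0.12 (SE, adjusted p = 0.00015) in PDGF-NS and −1.33 ± 0.12 (SE, adjusted p = 7.2e-05) in IGF-NS.

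Regulators of serum response factor and TEAD genes were measured as well. Of 9 tested, 6 fell, 0 rose and 3 were not called in PDGF-NS, and 6 fell, 1 rose and 2 were not called in IGF-NS. Beside that, 20.7% of all genes rose and 10.2% fell in PDGF-NS, and 17.4% rose and 7.48% fell in IGF-NS. With median ratio scaling or quantile normalization 7 of the 9 fell and 0 rose in IGF-NS. Tead2 lost its call as higher there (limma adjusted p = 0.0739 and 0.0596). Srf itself averaged 8.65 ± 0.535 FPKM in PDGF-NS and 28.3 ± 8.37 FPKM in control, a log2 fold change of −1.56 ± 0.23 (SE, adjusted p = 0.000742), and 7.82 ± 2.25 FPKM in IGF-NS and 28.3 ± 8.37 FPKM in control, a log2 fold change of −1.72 ± 0.23 (SE, adjusted p = 0.000793). Myocd, myocardin, was lower in PDGF-NS than in IGF-NS, with 5.33 ± 0.497 FPKM in PDGF-NS and 21.5 ± 4.60 FPKM in IGF-NS, a log2 fold change of −1.81 ± 0.16 (SE, adjusted p = 7.21e-05).

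Markers of cell identity moved beside the members. Of 6 smooth muscle markers tested 5 fell and 1 rose in PDGF-NS, and 5 fell, 0 rose and 1 was not called in IGF-NS. Beside that, 20.7% of all genes rose and 10.2% fell in PDGF-NS, and 17.4% rose and 7.48% fell in IGF-NS. With median ratio scaling, a common sum or quantile normalization all 6 smooth muscle markers fell in IGF-NS. Their summed level over the 7 markers listed was 278 to 346 FPKM in PDGF-NS, 483 to 501 FPKM in IGF-NS and 2276 to 3268 FPKM in control. The median log2 fold change of the 6 tested was −2.55 in PDGF-NS and −2.05 in IGF-NS. Tagln and Cnn1 were among those that fell in PDGF-NS. Tagln, which coats filaments in smooth muscle, averaged 211 ± 37.5 FPKM in PDGF-NS and 2106 ± 518 FPKM in control. Its log2 fold change was −3.30 ± 0.18 (SE, adjusted p = 3.55e-06). Cnn1, smooth muscle calponin, averaged 22.5 ± 3.69 FPKM in PDGF-NS and 262 ± 63.2 FPKM in control, a log2 fold change of −3.47 ± 0.21 (SE, adjusted p = 5.08e-06). Of 6 fibroblast markers 5 rose and 1 fell in PDGF-NS, and 4 rose and 0 fell in IGF-NS. Their summed level was 852 to 1339.8 FPKM in PDGF-NS, 1917 to 2036 FPKM in IGF-NS and 314 to 449 FPKM in control, most of it from Lum. The part of these changes in the members' result was not tested.

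Markers of other cells were partly listed at 0 and partly expressed. Cdh5, Emcn and Kdr of endothelium, Ptprc, Aif1 and Emr1 of leukocytes, Myh6 and Myh7 of cardiomyocytes and Rgs5 of pericytes were listed at 0 in every library. The endothelial list summed to 3.90 to 6.45 FPKM in PDGF-NS, 1.71 to 4.26 FPKM in IGF-NS and 7.59 to 9.19 FPKM in control, with 1 of its genes tested. That gene, Erg, fell in IGF-NS, −1.24 ± 0.27 (SE, adjusted p = 0.00914), and had −0.64 ± 0.27 (SE, adjusted p = 0.0975) in PDGF-NS, which was not called. With quantile normalization the PDGF-NS value of Erg was called lower, at −0.79. The leukocyte and macrophage list summed to 43.6 to 89.5 FPKM in PDGF-NS, 22.6 to 30.8 FPKM in IGF-NS and 17.7 to 27.0 FPKM in control. Of its 2 genes tested, Cd14 and Cd68, both rose in PDGF-NS and 0 were called in IGF-NS. The cardiomyocyte list summed to 1.35 to 4.55 FPKM in PDGF-NS, 8.35 to 19.6 FPKM in IGF-NS and 10.6 to 22.4 FPKM in control. Its 1 gene tested, Tnnt2, fell in PDGF-NS, −2.15 ± 0.39 (SE, adjusted p = 0.00259), and had −0.32 ± 0.39 (SE, adjusted p = 0.595) in IGF-NS, which was not called. The pericyte list summed to 159 to 182 FPKM in PDGF-NS, 129.9 to 141 FPKM in IGF-NS and 99.8 to 170.1 FPKM in control. Of its 3 genes tested, ABCC9 rose in PDGF-NS, 1.35 ± 0.14 (SE, adjusted p = 8.31e-05), Notch3 fell in PDGF-NS, −1.85 ± 0.25 (SE, adjusted p = 0.000493), and 0 were called in IGF-NS. The part of these changes in the members' result was likewise not tested.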

How the data were processed

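RNA of the S31 cells was taken with Trizol and sequenced from Lexogen SENSE mRNA v2 libraries, per the labels' protocols. The submitters' processing notes name GSNAP and Cufflinks. No source used here gives the genome build, the annotation or a tool's version. The authors deposited FPKM per gene and library, so count models do not apply and the depth behind a value is unknown. Cufflinks may divide reads between near-identical genes. Each sample record names its column, and columns were matched to samples by that name. Acta2 and a further gene list are not reported here.

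The value 999999999 stood in 10 cells of 4 genes and was taken for a failed estimate. Those genes and 2 duplicated all-zero rows were dropped. A library was listed at 0 in 31 genes whose median exceeded 5 FPKM, so a 0 may also stand for a failed estimate.

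Genes averaging 1 FPKM or more were tested with limma 3.58.1 in R 4.3.3 (trended moderation) on log2(FPKM + 1), with all 9 libraries in 1 fit, 3 two-sided contrasts and Benjamini-Hochberg adjustment over 11376 genes, calling at 0.05. The procedure was tested on simulated data. Sums and ratios were compared with exact permutation tests over libraries in Python 3.11.15. Every member is named. Members called with a log2 fold change of at least 1 and no overlap between libraries get full statistics. Of each further list, up to 4 called genes with the largest change could be named, and part of them are printed. The members and lists were chosen with earlier results of these data known. Alternatives were pseudocounts of 0.1 and 5, no filter on low values, a minimum of 5 FPKM, median ratio scaling, a common sum, quantile normalization, a fit on the 6 libraries compared, the replicate number as a block, and leaving out each library. Promoter windows come from RefSeq for GRCr8 and were matched by symbol.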

Additional observations from a re-analysis of the deposited data

Results flagged for a closer look

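Fhl3 stood above control in every PDGF-NS library and below it in every IGF-NS library. The difference between PDGF-NS and IGF-NS was 0.79 ± 0.13 on the log2 scale (SE, limma adjusted p = 0.00244). Against control the PDGF-NS value was not called (limma adjusted p = 0.0738). The IGF-NS value was called (limma adjusted p = 0.0285), but not when some single libraries were left out.

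Synpo2 stood the other way, below control in every PDGF-NS library and above it in every IGF-NS library. The gap was narrow, with 3.52 FPKM in the highest PDGF-NS library and 3.54 FPKM in the lowest control library. Neither set was called against control (limma adjusted p = 0.348 in PDGF-NS and 0.0959 in IGF-NS). The difference between PDGF-NS and IGF-NS was −0.76 ± 0.20 (SE, limma adjusted p = 0.0279), at levels of 2.38 to 7.63 FPKM. That call ended with the replicate number as a block (adjusted p = 0.0521) and when some single libraries were left out.

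The ratio of Myh9 to Myh10 was above control in every PDGF-NS library and below it in every IGF-NS library. Its log2 value was −0.91 ± 0.21 in PDGF-NS, −2.23 ± 0.26 in IGF-NS and −1.40 ± 0.21 in control (SD, n = 3 each). The difference between the treated sets was 1.32, with p = 0.1 in the exact permutation test, the smallest it can give.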

How the results depend on the processing

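In PDGF-NS against control 25 of the 27 members called kept their call under every alternative run, and Pxn and Tgfb1i1 did not. In IGF-NS against control 24 of 28 kept it, all but Cap1, Cfl1, Fhl3 and Myl6, and between the treated sets 5 of 8 did, all but Flna, Palld and Synpo2. Over all leave-one-library-out fits, members called higher numbered 0 to 1 in PDGF-NS against control (Fhl3) and 0 to 1 in IGF-NS against control (Synpo2). Members called lower in PDGF-NS than in IGF-NS numbered 1 to 4, and 8 with a common sum. Genes called numbered 1757 (without IGF-NS library 1) to 2935 in IGF-NS against control, beside 2827 with all libraries. Between the treated sets they numbered 1014 (without PDGF-NS library 3) to 2143 (without control library 1), beside 1807. The cause of these shifts was not tested.

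Changes of sign touched values that were not called. Between PDGF-NS and IGF-NS these were Pfn1 with median ratio scaling (0.02), Arpc2 (−0.12) and Cfl1 (−0.11) with a common sum, and Actb (−0.08), Arpc2 (−0.10) and Cfl1 (−0.26) with quantile normalization. Without 1 library the same difference ran from −0.06 to 0.11 for Cfl1, −0.04 to 0.28 for Flnc, −0.12 to 0.15 for Arpc2, −0.28 to 0.35 for Pfn1 and −0.16 to 0.08 for Tln1. Pdlim3 in PDGF-NS against control ran from −0.35 to 0.15. The log2 ratio of Flna to Flnc in IGF-NS against control ran from −0.14 to 0.13.

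With the replicate number as a block, 1 member was called lower in PDGF-NS than in IGF-NS, and 27 members were called lower than control in PDGF-NS and 26 in IGF-NS. Same-numbered libraries deviated together with r of −0.276 to 0.253, beside −0.513 to 0.407 for other pairs. Of 9 libraries, 2 correlated best with their own number. Whether same-numbered libraries belong together is not given in the labels. These few correlations, taken around means of 3 libraries, cannot decide it. Unknown read depth limits what can be said of low members such as Ldb3 and Synpo2.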
